A study of Mus musculus with 6 samples.

Results

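Rnf145, which encodes a membrane-bound ubiquitin ligase of the endoplasmic reticulum, and 7 enzymes of cholesterol synthesis (Hmgcs1, Idi1, Fdps, Fdft1, Sqle, Cyp51 and Dhcr7) were examined in the brains of mice without the neural cell adhesion molecule NCAM. These 8 genes, of 8251 with a probe set of their own, were measured by 11 probe sets, meaning every probe set annotated with 1 of these symbols and no other. The genes were chosen by their knockout against wild-type values, with results of these same arrays known, and how each enzyme was picked is not recorded. That contrast is therefore given for them as a description, with a standard error and no test. The knockout group held 3 C57BL/6J males carrying a constitutive Ncam1 knockout, present in all tissues from conception, and the wild-type group 3 males of the same background. The first 2 replicates of either genotype were aged 2 months and the third was aged 3 months. RNA came from total brain, each animal had its own one-colour Affymetrix array, and the series asked which transcripts differ when NCAM is missing.

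The brain makes nearly all of its own cholesterol, because the lipoproteins of the blood do not cross the blood-brain barrier. In the adult, oligodendrocytes and astrocytes carry much of this synthesis, and myelin holds most of the product. The pathway runs from acetyl-CoA through mevalonate, isoprenoid diphosphates and squalene to lanosterol and then cholesterol. Its genes are switched on together by the SREBP transcription factors, which bind sterol regulatory elements near the start sites, commonly next to sites for NF-Y or Sp1. When sterols are plentiful, INSIG proteins hold SCAP, the escort of SREBP, in the endoplasmic reticulum. RNF145 is induced by the sterol-sensing liver X receptors in mouse liver and macrophages. It has been linked there to ubiquitination of SCAP.

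Promoter sequences are shown for Rnf145 and Hmgcs1, the ligase gene and the enzyme gene at the head of the pathway, to set side by side the kinds of sites their start regions hold. RefSeq windows of build GRCm38.p6, from 250 bases before to 50 after an annotated start, were matched for 5 of the 8 genes (Rnf145, Hmgcs1, Idi1, Dhcr7 and Cyp51), 9 windows in all. Capitals mark matches on either strand to 4 motifs, namely TCACNCCAC (a sterol regulatory element), CCAAT (NF-Y), GGGCGG (Sp1) and CACGTG (an E-box), none of which overlapped another here.
Rnf145, first of 3 windows, plus strand, chr11:44518706-44519005: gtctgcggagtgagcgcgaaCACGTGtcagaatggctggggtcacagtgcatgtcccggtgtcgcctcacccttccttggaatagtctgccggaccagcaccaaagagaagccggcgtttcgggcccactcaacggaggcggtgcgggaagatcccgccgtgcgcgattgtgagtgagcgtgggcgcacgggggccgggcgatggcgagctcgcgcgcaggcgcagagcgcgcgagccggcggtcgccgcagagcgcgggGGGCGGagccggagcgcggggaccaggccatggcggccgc
Hmgcs1, plus strand, chr13:119690101-119690400: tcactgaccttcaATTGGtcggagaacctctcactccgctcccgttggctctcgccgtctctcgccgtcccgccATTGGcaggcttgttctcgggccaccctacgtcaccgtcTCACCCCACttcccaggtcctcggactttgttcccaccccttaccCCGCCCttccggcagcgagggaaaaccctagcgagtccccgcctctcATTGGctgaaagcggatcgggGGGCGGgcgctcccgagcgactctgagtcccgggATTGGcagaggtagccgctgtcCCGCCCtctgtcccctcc
The Hmgcs1 window held 1 sterol regulatory element, TCACCCCAC, lying 137 to 129 bases before the start, with 4 CCAAT and 3 GGGCGG matches. Of all 32817 promoter windows, 1.24% held TCACNCCAC, 37.4% CCAAT, 35.6% GGGCGG and 7.15% CACGTG. The first Rnf145 window held 1 E-box, from 230 to 225 bases before the start, and 1 GGGCGG. The other Rnf145 windows held 3 and 1 GGGCGG matches and no match to the other motifs. TCACNCCAC was matched in no window of Rnf145, Idi1, Cyp51 or Dhcr7, so Hmgcs1 was the only gene here with it. Idi1 had 2 CCAAT matches and Cyp51 had 1, and the 3 windows of Dhcr7 had 0, 0 and 2. For GGGCGG, Idi1 and Cyp51 had 1 match each and the Dhcr7 windows 1, 0 and 3. The second Dhcr7 window also held 1 E-box. No match to a motif means only that these letters are missing from the window.

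Signals on the arrays are linear and carry no length correction, so levels were compared only within a probe set. Marker sums are the exception: they add probe sets of several genes, lean on the brightest, and are compared only between arrays. All 6 arrays had the same scaling (a mean of 300.2 over the middle 96% of signals), and 2 knockout brains stood apart in what tissue they held. The cerebellar markers of knockout replicate 2 summed to 2316, against 8464 and 9470 in the other knockout brains and 8760 to 9702 in wild-type brains. Pituitary markers summed to 15624 in knockout replicate 1, to 1249 and 1341 in the other knockout brains and to 939 to 1097 in wild-type brains. Neuronal markers, the check of the tissue label, summed to 23236 to 23522 in knockout, against 23513 to 24195 in wild-type brains. Ncam1 itself, by its brightest probe set, read 276, 209 and 327 in knockout against 1346, 1448 and 1216 in wild-type brains (limma, adjusted p = 0.00076), though the position of the deletion relative to its probes is not known here. Its second kept probe set, of a less specific kind, had a log2 difference of -0.68 and did not pass (limma, adjusted p = 0.416).

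Rnf145 was read by a single probe set, 96104_at, and was higher in knockout brains. Its signal was 1094, 1078 and 1078 in knockout replicates 1, 2 and 3, as against 679, 824 and 569 in wild-type replicates 1, 2 and 3. Every knockout value lay above every wild-type value, and the 3 knockout brains were nearly equal where the wild-type brains were spread out. The mean was 1084 ± 9.38 for knockout and 691 ± 128 for wild-type brains (SD, n = 3 each), with coefficients of variation of 0.866% and 18.5%. On the log2(signal + 16) scale the difference, knockout minus wild type, was 0.65 ± 0.12 (SE), a ratio of 1.57. This SE, like those below, comes from the limma fit, which draws each variance toward that of probe sets of like brightness. The pooled SD of the log2 values of Rnf145 itself was 0.18. Signals without overlap and higher in knockout were found for 6.08% of the 7453 probe sets that passed the brightness limit, and 1.14% of them differed by as much as Rnf145 in either direction. Because the gene was picked with this difference in view, nothing is read from those shares.

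The Rnf145 difference was of similar size without the brains that stood apart. It was 0.65 without knockout replicate 1, 0.66 without knockout replicate 2, and 0.65 for knockout replicate 3 alone against the wild-type brains. Wild-type brains moved it more, to between 0.52 and 0.79 over the fits that each omitted 1 array. Between the 3-month-old animals, 1 of each genotype, it was 0.90, and among the 2-month-old animals 0.53. For the Gapdh control, 3' signal over 5' signal, a sign of RNA quality, was 0.826, 0.811 and 0.812 in knockout replicates 1, 2 and 3, against 0.779, 0.798 and 0.768 in wild-type replicates 1, 2 and 3. This ratio separated the genotypes as Rnf145 did and, within the wild type, replicate 2 was highest and replicate 3 lowest for both. Its part in the Rnf145 result was not tested. The actin ratio was 1.22, 1.18 and 1.14 in knockout against 1.09, 1.08 and 1.20 in wild-type samples, so there the groups overlapped.

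**Figure D1:**
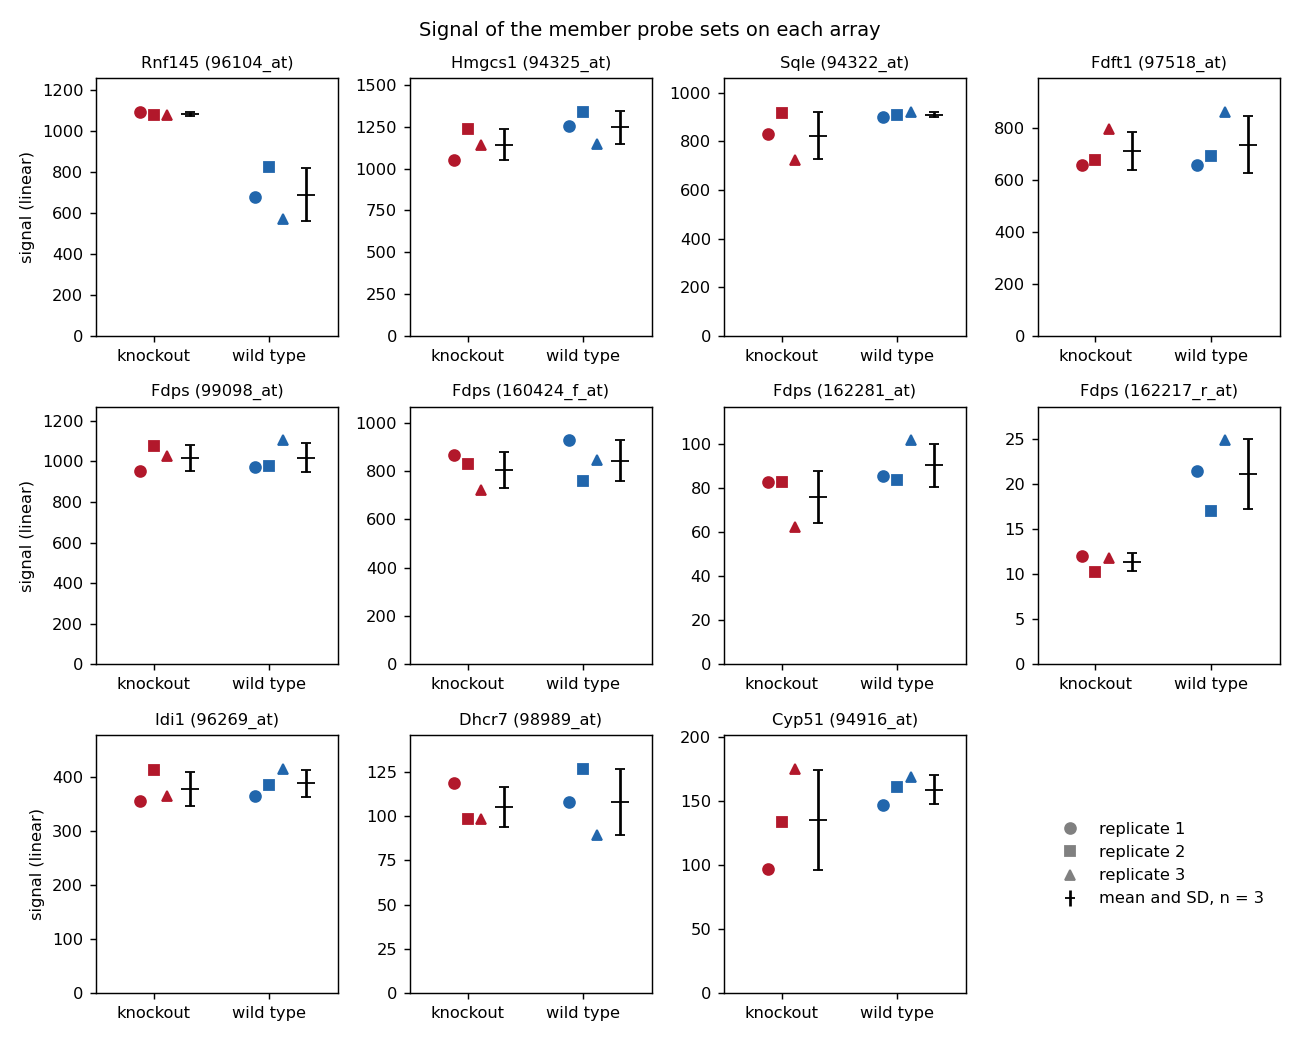
Signal (linear, from 0) of the 11 probe sets on each array, knockout on the left and wild type on the right, with the mean and SD of 3 animals beside the points. Rnf145 sits at 1078 to 1094 in knockout and at 569 to 824 in wild-type brains, while the enzymes overlap between genotypes except for 2 dim Fdps probe sets.

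The probe sets whose pattern over the 6 arrays lay nearest to that of Rnf145 belonged to Ccni, Zfp91, Nup107, Hdac3 and Yipf5. Likeness was the root mean square difference between log2 values centred on their own mean, over 6735 probe sets of other genes. It was 0.05, 0.08, 0.10, 0.10 and 0.12 for these 5, where the median probe set had 0.38. Ccni, which encodes a cyclin-like protein, came closest, with 342, 336 and 332 in knockout against 196, 239.5 and 182 in wild-type brains, the same order of wild-type animals as Rnf145. For 3 of the 5 genes a second kept probe set was present, and it did not follow the pattern. The nearest probe sets were picked for their likeness, so a weaker likeness in a second one follows in part from that choice. The nearest Ccni probe set had a mean signal of 271 and the other 1961. Ccni had a log2 difference of 0.68 by the nearest probe set and -0.01 by the other, Zfp91 0.53 and 0.01, and Yipf5, a protein of the early secretory pathway, 0.42 and -0.06. The single probe sets of Nup107, a nuclear pore protein, and Hdac3, a histone deacetylase, had 0.78 and 0.51. Rnf145 has no second probe set to set beside its own value. None of the 7 enzymes was near it. The closest, Dhcr7, lay at a distance of 0.35, beside the median of 0.38. By this measure any flat profile lies far from Rnf145, so it cannot show whether an enzyme shares the pattern at a smaller size.

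**Figure D2:**
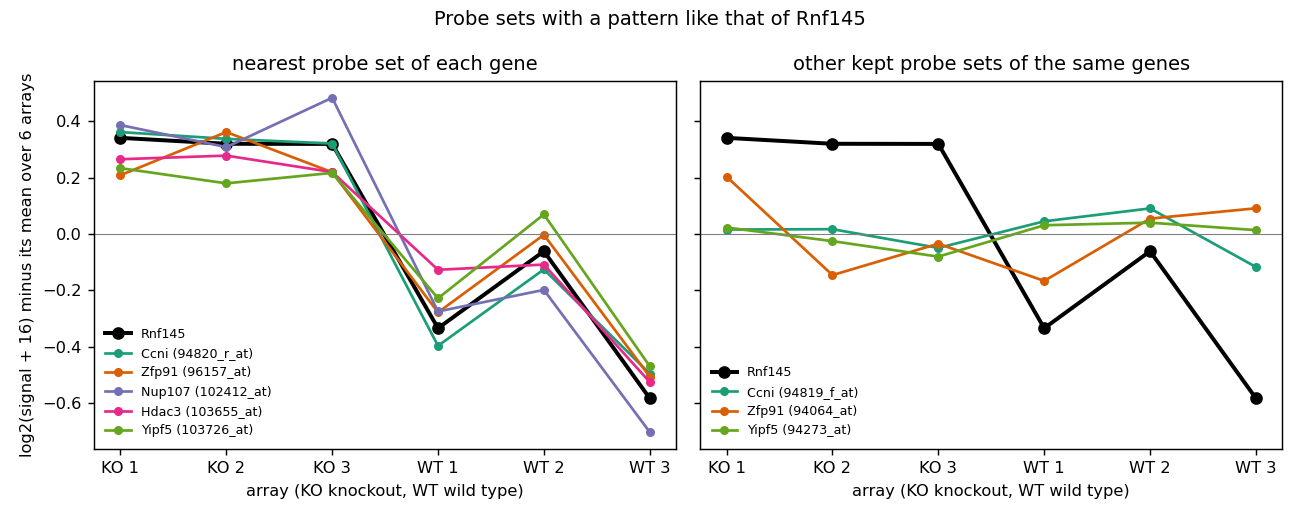
Log2(signal + 16) of Rnf145 and of its nearest probe sets on each array, each minus its own mean over the 6 arrays. The nearest probe sets on the left, picked for their likeness, follow Rnf145. The other kept probe sets of Ccni, Zfp91 and Yipf5 on the right stay close to 0, with differences of -0.01, 0.01 and -0.06.

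The enzymes of the early pathway gave knockout signals within the wild-type range or close below it. Hmgcs1, the synthase that makes HMG-CoA, read 1051, 1236 and 1142 in knockout against 1255, 1338 and 1145 in wild-type brains. The ranges overlapped, and the log2 difference was -0.12 ± 0.09 (SE). Idi1, the isomerase of isopentenyl diphosphate, read 356, 413 and 364 in knockout against 364, 385 and 415 in wild-type brains (log2 difference -0.04 ± 0.10). Fdft1, the squalene synthase that commits farnesyl diphosphate to sterols, read 659, 679 and 797 in knockout against 658, 691 and 863 in wild-type brains. Its genotype difference was -0.04 ± 0.12, and in both genotypes the third animal was the highest.

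Fdps, the synthase of farnesyl diphosphate, was covered by 4 probe sets that differed in brightness. The brightest, 99098_at, read 951, 1076 and 1025 in knockout against 974, 979 and 1103 in wild-type brains, with a log2 difference of -0.00 ± 0.08. The second, of a less specific kind (160424_f_at), read 866, 831 and 722 against 927, 758 and 847, a difference of -0.06 ± 0.10. Both showed overlapping genotypes. The dim probe set 162281_at read 82.8, 82.8 and 62.3 in knockout against 85.4, 83.8 and 102 in wild-type brains (-0.21 ± 0.17). Its groups were separated by about 1 unit of signal, and the knockout brain at 62.3 lay below the brightness limit of 72.2. The dimmest, 162217_r_at, read 12.1, 10.2 and 11.8 against 21.5, 17.1 and 24.9, far under that limit in every brain, a difference of -0.44, and was not tested. The 2 dim probe sets thus had no overlap while the 2 bright ones did, and 6.8% of all tested probe sets had no overlap and lower values in knockout.

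The enzymes that act after squalene was formed were Sqle, Cyp51 and Dhcr7, each with 1 probe set and overlapping genotypes. Sqle, the squalene epoxidase and a rate-limiting step, read 831, 916 and 722 in knockout against 901, 906 and 920.0 in wild-type brains. Here the knockout values were spread (coefficient of variation 11.8%) and the wild-type values nearly equal (1.08%), the reverse of Rnf145. The log2 difference was -0.15 ± 0.09, and without knockout replicate 3, the lowest, it was -0.06. Cyp51, the demethylase of lanosterol, read 96.9, 134 and 175 in knockout against 147, 161 and 169 in wild-type brains. Its knockout animals ran from the lowest to the highest value of all 6 arrays. The difference of -0.24 ± 0.19 became -0.05 without knockout replicate 1. Dhcr7, the reductase that yields cholesterol in the last step of its branch, read 119, 98.6 and 98.6 in knockout against 108, 127 and 89.3 in wild-type brains (-0.03 ± 0.16).

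With the brightest probe set of each gene, all 7 enzymes had a lower mean in knockout brains, by small amounts. The differences ran from -0.24 to -0.00 with a median of -0.04, where the median of all 5665 genes tested was -0.00 and 50.8% of them were lower. None of the 7 had genotypes without overlap, where 12.9% of tested probe sets did. The direction rested on single brains: without knockout replicate 1, and likewise without wild-type replicate 3, 4 of the 7 were lower and 3 higher. By array, the median enzyme stood at -0.13, -0.01 and -0.08 in knockout replicates 1, 2 and 3 against the wild-type mean, and at -0.06, -0.00 and 0.08 in wild-type replicates 1, 2 and 3. Knockout replicate 1, the brain with pituitary signal, held the lowest value of 4 enzymes, and wild-type replicate 3 held the highest of 4. The mean profile of the 7 enzymes was so flat that its 5 nearest probe sets, those of Serac1, Usp7, Csnk2a2, Dhodh and Actl6b, lay within 0.03 of it, beside a median of 0.15 for all 6726 compared. Rnf145 on the same arrays stood at 0.67, 0.65 and 0.65 in knockout and at -0.01, 0.26 and -0.26 in wild-type brains.

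**Figure D3:**
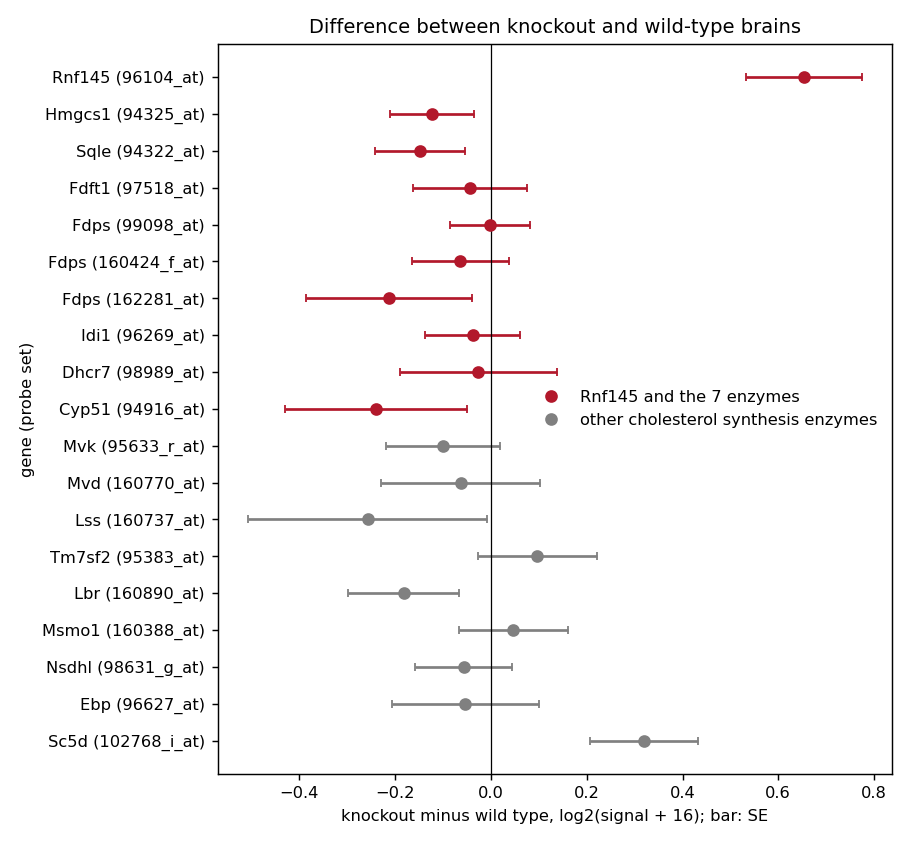
Knockout minus wild-type difference on the log2(signal + 16) scale with its SE, for Rnf145 and the 7 enzymes (10 tested probe sets) and for 9 other enzymes of cholesterol synthesis. Rnf145 stands at 0.65, and the tested probe sets of the 7 enzymes lie between -0.24 and -0.00.

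Summed markers of the cells that make most sterol were lower in knockout brains and are set beside these values. The 10 oligodendrocyte and myelin genes tested, of 15 listed, summed to 16791 to 17892 in knockout, against 18746 to 19904 in wild-type brains without overlap, and 8 of the 10 had lower means in knockout. Cryab and Qdpr had the lowest p (-0.45 and -0.23), while Cldn11 and Mal were higher by 0.10 and 0.00. Mag had -0.44 and Mobp -0.21. Cryab, read by a probe set of a less specific kind, and Mobp lie on chromosome 9, as Ncam1 does. Any part of that position in their values was not tested. The 8 astrocyte genes tested, of 11, summed to 14065 to 14860 in knockout, against 15313 to 15783 in wild-type brains, with Ndrg2 (-0.17), S100b (-0.41), Gja1 (0.17) and Gfap (0.06) at the lowest p in each direction. Other kept probe sets went the opposite way for Ndrg2 (0.09), Gja1 (-0.09) and Mag (0.25). At an unadjusted p under 0.05 in limma, 5 of the 10 myelin genes were lower and 0 higher, and 3 of the 8 astrocyte genes were lower and 1 higher, where 6.78% of all genes passed in either direction. Genotypes did not overlap for 6 myelin genes and 3 astrocyte genes that were lower and for 1 astrocyte gene that was higher. Of all tested probe sets, 6.8% were lower and 6.08% higher without overlap. The marker lists were made with earlier results of these data known, so their counts beside these shares are a description and no independent test. None of these markers was called after adjustment, and no marker was listed at 0. Of the defining markers, Cnp was below the brightness limit in every brain. Their part in the enzyme or Rnf145 values was not tested. In total brain, fewer cells of a type and less RNA per cell cannot be told apart.

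The rest of the pathway was taken from 5 lists of 85 genes, of which 50 had a probe set of their own and 45 were bright enough to be tested. Of these 45 genes, 0 were higher and 0 lower at an adjusted p under 0.05 in limma, where 0.0177% of all genes were called. At an unadjusted p under 0.05, 1 was higher and 2 were lower, against 6.78% of all genes. Genotypes did not overlap for 2 genes that were higher and 6 that were lower, where 6.08% of tested probe sets were higher and 6.8% lower without overlap. The median difference over the 45 was -0.05, with 15 higher and 30 lower, beside -0.00 for all genes. These lists, too, were made with earlier results known, so the counts are no independent test. Srebf2, Scap, Insig2, Nr1h2, Mylip and Cyp46a1 were among the listed genes not analysed here.

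Among the other synthesis enzymes 9 genes were tested, of which 3 had higher and 6 lower means (median -0.06). Sc5d, the sterol desaturase next to Dhcr7 in the pathway, read 194, 195 and 180.0 in knockout against 146, 143 and 157 in wild-type brains. Its values did not overlap (log2 0.32 ± 0.11), yet it did not pass (limma, adjusted p = 0.666), and its second kept probe set had -0.11. Sc5d lies on chromosome 9, as Ncam1 does, and any part of that position was not tested. Tm7sf2, a sterol reductase, had 0.10 ± 0.12 and Lbr, a nuclear envelope protein with the same activity, -0.18 ± 0.12. Lss, which closes the sterol ring, read 70.7, 40.8 and 94.6 in knockout against 80.6, 72.9 and 92.4 in wild-type brains (-0.26 ± 0.25). Mvd had -0.06 ± 0.17. Nsdhl had -0.06 ± 0.10 by its brightest probe set and -0.22 and -0.29 by the others. The mean of Hsd17b7 was below the brightness limit, although knockout replicate 1 read 89.4.

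Genes that sense sterols and control SREBP gave 6 tested members, 2 higher and 4 lower (median -0.05). Srebf1, the gene of an SREBP factor, read 714, 768 and 658 in knockout against 779, 812 and 829 in wild-type brains. The genotypes did not overlap, and the difference of -0.18 ± 0.08 did not pass (limma, adjusted p = 0.741). Aup1, a protein of lipid droplets and endoplasmic reticulum degradation, had -0.08 ± 0.07, Marchf6, a ubiquitin ligase that degrades squalene epoxidase, 0.05 ± 0.06, and Erlin1, a membrane protein of the endoplasmic reticulum, 0.01 ± 0.15. Insig1 was dim throughout, at 16.2, 2.97 and 4.87 in knockout against 3.11, 4.24 and 3.11 in wild-type brains, and was not tested.

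Of 12 other SREBP target genes tested, 4 were higher and 8 lower (median -0.02). Fasn, the fatty acid synthase, read 469.6, 616 and 522 in knockout against 752, 678 and 772 in wild-type brains. All knockout values were below all wild-type values, and the difference of -0.45 ± 0.11 had the lowest p of the 45 genes without passing (limma, adjusted p = 0.436). Fads1, a fatty acid desaturase, had -0.11 ± 0.07, Scd2, the stearoyl-CoA desaturase of brain, 0.08 ± 0.05 and -0.19 by its second probe set, and Npc1, which exports cholesterol from lysosomes, 0.10 ± 0.10.

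Transport and turnover genes included 13 that were tested, 4 higher and 9 lower (median -0.05). Abca2, a lipid transporter rich in oligodendrocytes, read 1025, 944 and 1053 in knockout against 1145, 1201 and 1242 in wild-type brains, with no overlap (-0.24 ± 0.07, limma adjusted p = 0.585). Lcat, which esterifies cholesterol on lipoproteins, had -0.26 ± 0.12, Lpl, the lipoprotein lipase, 0.26 ± 0.16, and Cyp7b1, an oxysterol hydroxylase, 0.21 ± 0.13. Abca1 had 0.00 ± 0.12, and -0.12 by its second kept probe set, and Apoe, the main apolipoprotein of the brain, -0.08 ± 0.10. In the isoprenoid branch, which leads to protein prenylation, 2 of 5 genes were higher and 3 lower (median -0.01). Fntb and Fnta, the subunits of farnesyltransferase, had -0.30 ± 0.18 and -0.09 ± 0.10, and Rabggtb and Rabggta, which prenylate Rab proteins, had 0.08 ± 0.08 and 0.07 ± 0.13.

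**Figure D4:**
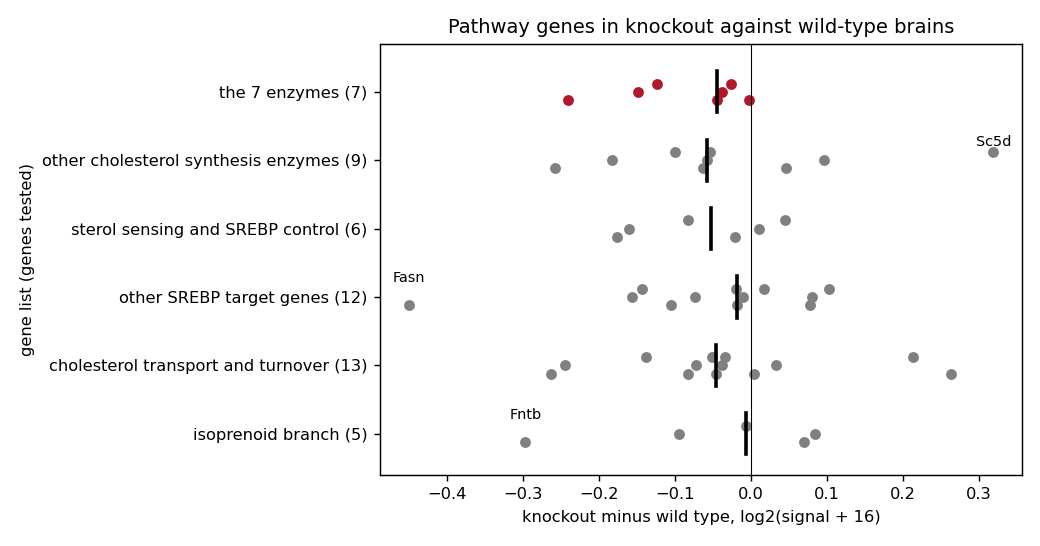
Knockout minus wild-type difference (log2(signal + 16)) of each tested gene in the 7 enzymes and 5 further lists, 1 point a gene by its brightest probe set, with the list median as a bar. List medians lie between -0.06 and -0.01, and Fasn (-0.45), Fntb (-0.30) and Sc5d (0.32) are the named genes farthest out.

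Age was a contrast that the choice of genes did not use, and each age held both genotypes. The older brains were the third replicates, so age cannot be told apart from anything else those animals shared. The 3-month-old brains (n = 2) were compared with the 2-month-old brains (n = 4) in limma with genotype as a covariate. None of the 10 tested probe sets of the 8 genes passed, where 2 of 7453 did (0.0268%). At an unadjusted p under 0.05 it was 1 of 10, against 12.4% of all probe sets, namely Fdft1. Fdft1 read 797 and 863 at 3 months in knockout and wild type, against 659 and 679 for knockout brains and 658 and 691 for wild-type brains at 2 months. Both older brains lay above all younger ones, as held for 11.4% of probe sets in this direction. The log2 difference was 0.30 ± 0.07, with 0.25 in knockout and 0.35 in wild-type animals, and did not pass (limma, adjusted p = 0.264).

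Cyp51 was also higher in both older brains, at 175 in knockout and 169 in wild type, against 96.9 and 134 for knockout brains and 147 and 161 for wild-type brains at 2 months. Its difference of 0.34 ± 0.17 did not pass (limma, adjusted p = 0.452). Dhcr7 was lower in both older brains, as held for 10.3% of probe sets, but the older knockout brain and a younger one both read 98.6 (-0.23 ± 0.16, adjusted p = 0.562 in limma). For Rnf145 the age difference was -0.20 ± 0.11 (limma, adjusted p = 0.492), made up of -0.01 in knockout and -0.39 in wild-type animals. The remaining age differences lay between -0.12 for Sqle and 0.10 for the brightest Fdps probe set.

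**Figure D5:**
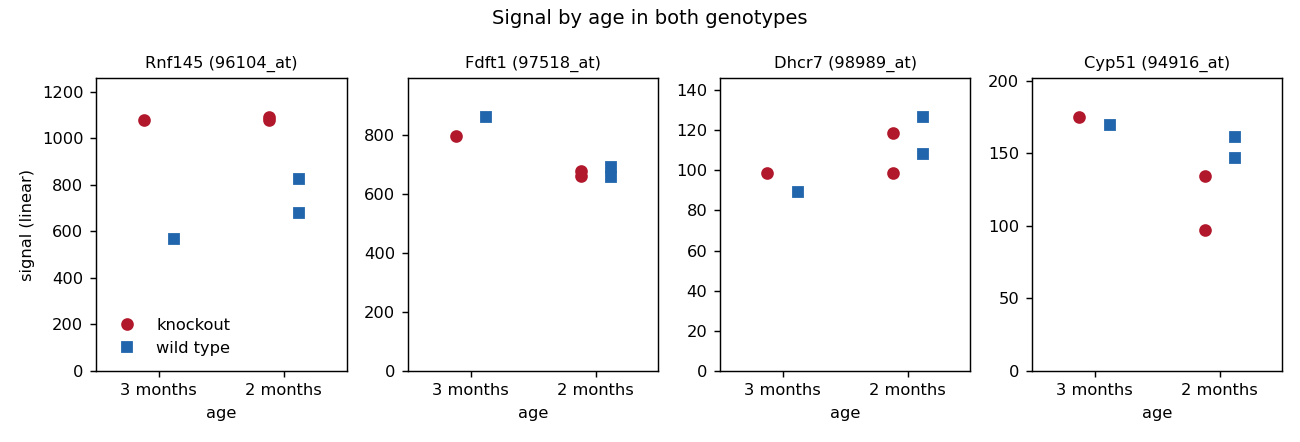
Signal (linear, from 0) of Rnf145, Fdft1, Dhcr7 and Cyp51 by age, knockout as circles and wild type as squares, 1 point a brain. Fdft1 is at 797 and 863 in the 3-month-old brains and at 658 to 691 in the 2-month-old ones, and Rnf145 is higher in knockout at both ages.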

How the data were processed

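Total RNA of 6 brains was hybridised as biotinylated cRNA to one-colour Affymetrix arrays, and genotype, age and replicate came from the labels. The authors deposited 1 signal intensity per probe set and array on a linear scale. The submitters' processing notes name GCOS 1.4, with settings not given here. Equal trimmed means point to scaling of every array to 1 target, a step that no label states and that would hide a change in total RNA.

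After 66 control entries were set aside, 12422 probe sets remained, 10833 with 1 gene symbol, 396 with several and 1193 with none. Of the first kind, 10817 matched a RefSeq gene table by Entrez identifier, and 0 symbols changed. Values were taken as log2(signal + 16), which understates folds of dim genes. The brightness limit was the 40th percentile of mean log2 values (6.46, equal to a signal of 72.2), and 7453 probe sets passed it. No detection calls were used. Differences were fitted with limma 3.58.1 in R 4.3.3 (lmFit, eBayes with an intensity trend, two-sided) and adjusted over all kept probe sets by Benjamini and Hochberg's method at 0.05. The procedure was tested on simulated data. List genes used their brightest kept probe set. Figures were drawn with matplotlib 3.10.9.

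Members and lists were chosen with earlier results of these data known. The rule for names takes every member probe set, from each list the 2 genes with the lowest p in each direction, a set of genes fixed by name, and the 5 nearest patterns. Of the names it takes, the neuronal, cerebellar and pituitary markers are given as sums. The precision is limited by the number of arrays, and the median standard error was 0.12. Alternatives are given in the closing section.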

Additional observations from a re-analysis of the deposited data

Results flagged for a closer look

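Cyp51 differed between genotypes in opposite directions at the 2 ages. At 3 months the knockout brain lay just above the wild-type brain (175 against 169, a log2 difference of 0.05). At 2 months both knockout brains lay below both wild-type brains (96.9 and 134 against 147 and 161, a log2 difference of -0.38). This difference between ages was not tested.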

How the results depend on the processing

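The log2 difference of Rnf145 moved by less than the spread between replicates under all 18 alternatives (0.52 to 0.79, the same range as when any 1 array was left out). Over the 11 probe sets, 191 of 198 recomputed differences did likewise. The replicate block, the age covariate, no filter, a stricter filter and no intensity trend cannot change a difference in this balanced design. Their agreement, counted here, was fixed in advance. The sign turned under 5 of 18 alternatives for the brightest Fdps probe set, under 3 each for its second probe set, Fdft1, Idi1 and Dhcr7, under 1 for Cyp51, and under 0 for Rnf145, Hmgcs1 and Sqle. The count of probe sets called between genotypes was 2. It was 1 with quantile normalisation, median centring, no filter or no intensity trend, 4 with array weights, and 1 to 3 when any 1 array was left out. It was 1 without knockout replicate 1, wild-type replicate 1 or wild-type replicate 2. It was 3 among 2-month-old animals alone and 3 for knockout replicate 3 alone, an alternative chosen after seeing the data in which the lone animal is assumed to vary like the others. The count of other pathway genes called was 0 under every alternative run, and 0 to 0 when any 1 array was left out, with 2 to 6 genes at an unadjusted p under 0.05 in limma (not counted where probe sets were averaged by gene). The count called between ages was 2, became 1 without the filter or without the genotype covariate and 0 without an intensity trend, and was 0 to 5 when any 1 array was left out. It was 0 without wild-type replicate 1, 2 or 3 and 5 without knockout replicate 3. Fdft1 kept its direction between ages (0.23 to 0.35) and passed under none of 15 alternatives (adjusted p 0.231 to 0.623). Whether replicate numbers mark pairs was not settled. Deviations of same-numbered animals correlated at 0.01, 0.15 and 0.20, and those of differently numbered animals at -0.22 to 0.08. The third replicates also share their age, so for them age and a pairing by number cannot be told apart. With the replicate block, 2 probe sets were called and the Rnf145 difference was 0.65, which the block cannot change.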
